A study of Homo sapiens with 19 samples.

Results

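The small nucleolar RNAs SNORD25, SNORD26, SNORD27, SNORD28, SNORD29, SNORD30 and SNORD31 share SNHG1 as their host gene and guide 2'-O-methylation of ribosomal RNA (rRNA). Their target sites were taken from the deposited table of 120 rRNA sites, as those whose annotation holds one of these 7 guide names exactly. All 7 guides had a site and 8 of the 120 sites were found, since SNORD30 is annotated to 2 of them. The sites in 18S rRNA, the RNA of the small ribosomal subunit, were 18S-27 (SNORD27), 18S-1383 (SNORD30), 18S-1391 (SNORD28) and 18S-1490 (SNORD25). The sites in 28S rRNA, the main RNA of the large subunit, were 28S-389 (SNORD26), 28S-3804 (SNORD30), 28S-4166 (SNORD31) and 28S-4493 (SNORD29). The numbers are positions in the rRNA as the table gives them.

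Box C/D snoRNAs such as these base-pair with rRNA and place the target nucleotide in the active site of fibrillarin (FBL), the methyltransferase of the snoRNA-protein particle, which adds a methyl group to the 2'-hydroxyl of the ribose. SNHG1 is a spliced host gene whose snoRNAs are cut from its introns, while its exons form no known protein. From background knowledge, SNORD26, SNORD27, SNORD29 and SNORD30 guide methylation of adenosines, SNORD25 and SNORD31 of guanosines, and SNORD28 of a cytidine. In the RefSeq annotation of GRCh38.p14 all 7 snoRNA genes lie inside SNHG1 on chromosome 11, in the order of their numbers from SNORD25, nearest the start of SNHG1, to SNORD31.

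RiboMethSeq was run on 19 libraries of Kasumi-1, a human acute myeloid leukaemia cell line. In this assay RNA is cut by alkali, a 2'-O-methyl group protects the bond beside it, and the methylated position shows as a gap in the fragment ends. The knockdown arm held 14 libraries in 7 groups of 2, all treated with doxycycline at 100 ng/ml. These were FBL knockdown with no re-expression, FBL knockdown with the mutant FBLTri, with the mutant FBLQua, with wild-type FBL or with an empty vector, and control knockdown with no re-expression or with an empty vector. The knockout arm held 5 single libraries without doxycycline: SNORD127 knockout clones C1 and C34, clone C1 with an empty vector, clone C1 with SNORD127 put back, and a control clone. Of these, 3 libraries come from clone C1. The labels do not say whether knockdown replicates came from separate cultures, and the p-values therefore describe variation among these libraries alone, some or all of which may be technical. Library names carry shFBL1 and shFBL2 for FBL knockdown without re-expression and shFBL4 for FBL knockdown with a vector. The vector and this part of the name therefore differ together between those backgrounds. Control knockdown libraries without re-expression carry shLUC1 and shLUC2, so the numbers there may count replicates. If they name hairpins, the replicates of FBL knockdown without re-expression also differ in hairpin. The titles of the mutant libraries conflict with their column names, where the libraries titled FBLTri are called Dual and those titled FBLQua are called Tri. The titles were followed, and every FBLTri or FBLQua value rests on them. Levels of FBL, SNHG1 and the snoRNAs were not analysed here, and the knockdown could not be checked on its target.

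Libraries held 5533150 to 18835537 fragment ends. In the second library of control knockdown with empty vector 20.8% of ends fell at 28S position 15, whereas the most used position held 2.56% to 4.90% in the other libraries. Leaving that library out changed no call at the SNHG1-guided sites except that of 28S-3804 on the difference between backgrounds (limma adjusted p = 0.0772 without it). Methylation is given as score C, a fraction that is 0 where a position has as many ends as its flanks and 1 where it has none. The flanks are the 6 positions on either side, with weights falling with distance. At the 8 sites the weighted flank mean was 24.4 to 8282 ends, with a median of 381.5. The 95% half-width from counting error had a median of 0.0176 and reached 0.142 at most, over 152 scores (8 sites in 19 libraries). It covers counting error only, as PCR copies of a molecule could not be told from separate molecules. A score of 1, meaning 0 ends at the site, occurred 7 times and a score of 0 never.

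**Figure D1:**
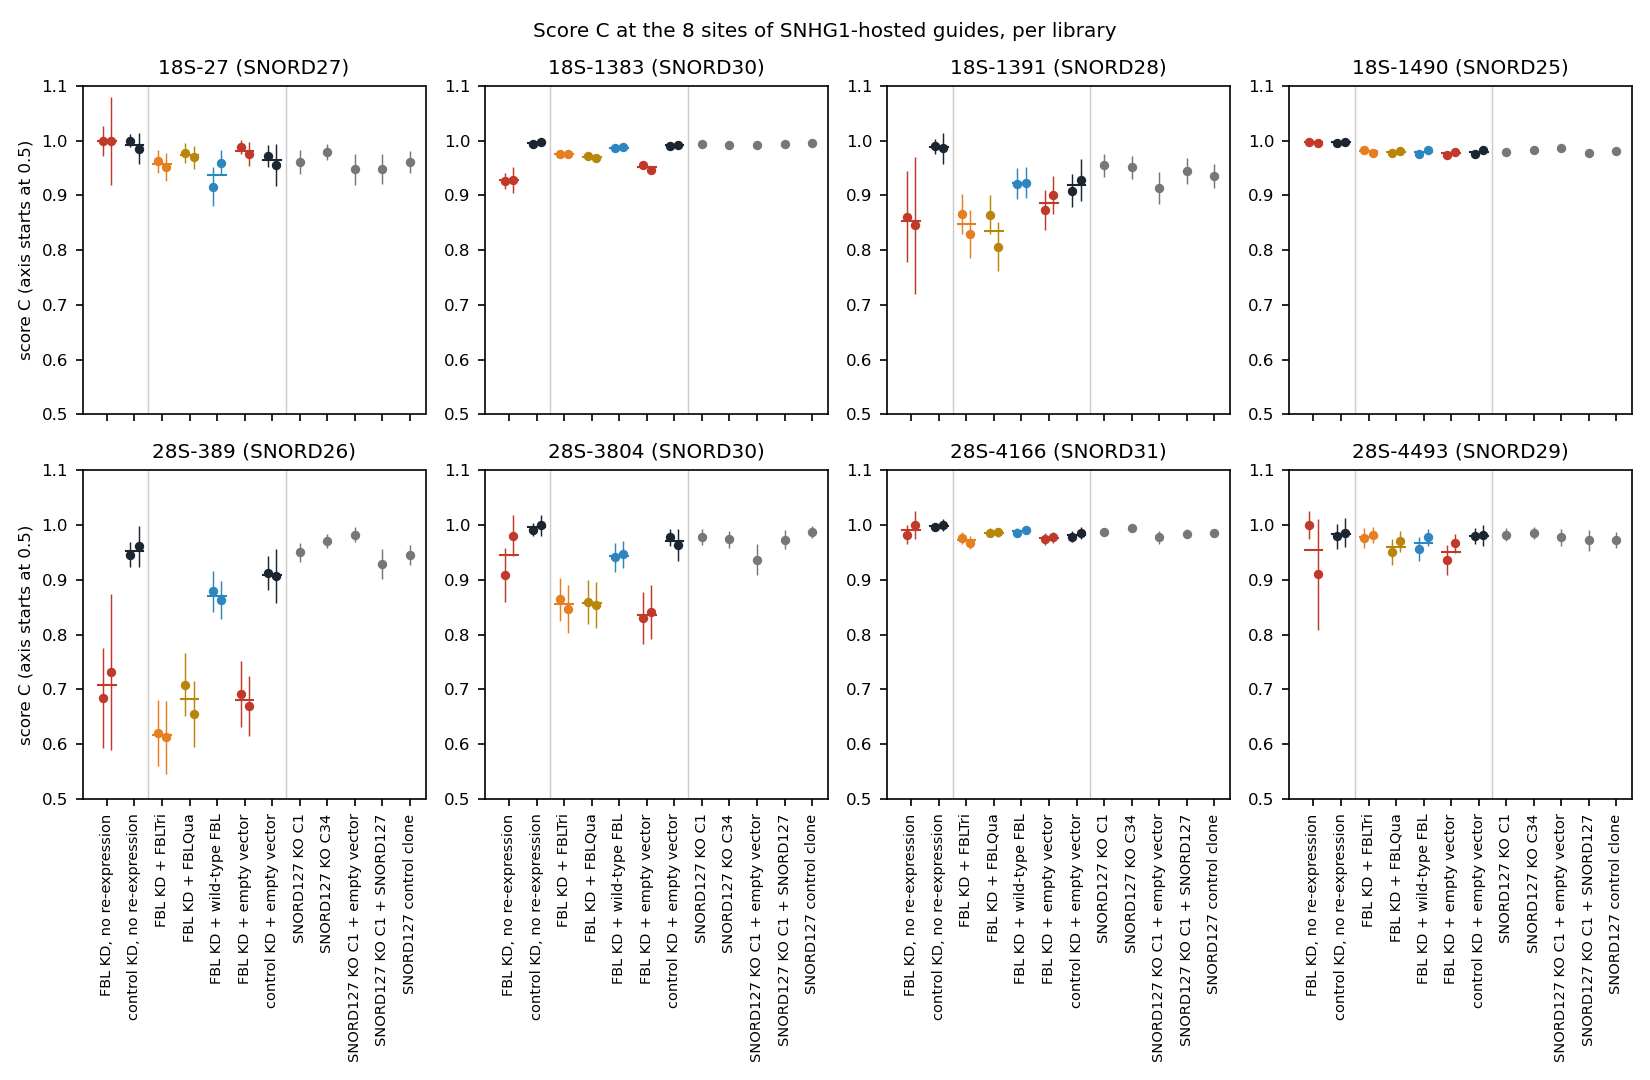
Score C (vertical axis, a fraction, starting at 0.5) of the 8 sites of SNHG1-hosted guides, 1 panel per site, in 19 libraries (points, with 95% counting intervals) grouped on the horizontal axis, with short lines at group means. At 28S-389 the libraries with FBL knockdown and no wild-type FBL sit between 0.612 and 0.731, below the rest, while at 18S-1490 the 19 libraries lie between 0.975 and 0.998.

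On FBL knockdown score C fell at 4 of the 8 sites, guided by SNORD26, SNORD28 and SNORD30. With library medians made equal, which sets each site relative to its library, only that of SNORD26 stayed lower. For scores as deposited, the largest difference was at 28S-389 (SNORD26), at -0.237 in score C. It was followed by 28S-3804 (SNORD30), 18S-1391 (SNORD28) and 18S-1383 (SNORD30) at -0.0928, -0.0828 and -0.0539. The sites of SNORD25, SNORD27, SNORD29 and SNORD31 did not pass the test. Of all 120 sites, 71.7% were lower and 1.67% higher in the same comparison, against 50% and 0% of the SNHG1-guided sites. These shares were not tested against each other. The knockdown comparison takes the mean of the FBL knockdown effects without re-expression and with empty vector. It was tested with limma on all 120 sites, two-sided, with Benjamini-Hochberg adjustment and a threshold of 0.05.

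At 28S-389, the SNORD26 site, score C was 0.684 and 0.731 in FBL knockdown without re-expression and 0.692 and 0.670 in FBL knockdown with empty vector. The control knockdown libraries had 0.946 and 0.961 without re-expression, and 0.913 and 0.906 with empty vector. All 4 FBL knockdown libraries lay below all 4 control libraries. In raw ends, FBL knockdown with empty vector had 104 and 142 at this position beside flank means of 337.3 and 430.2, and control knockdown with empty vector had 31 and 14 beside 355.5 and 149.7. The difference was -0.237 (SE 0.0151, 95% interval -0.272 to -0.203, limma adjusted p = 6.81e-07). It was rank 21 of 120 from the most negative change.

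SNORD30 guides 28S-3804 as well as 18S-1383. At 28S-3804 score C was 0.910 and 0.981 in FBL knockdown without re-expression and 0.831 and 0.841 in FBL knockdown with empty vector, against 0.992 and 1 in control knockdown without re-expression and 0.978 and 0.964 in control knockdown with empty vector. The groups overlapped in 1 library, the second FBL knockdown library without re-expression, which had 1 end at this position beside a flank mean of 52.2. The difference was -0.0928 (SE 0.0134, 95% interval -0.123 to -0.0621, limma adjusted p = 0.000194).

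At 18S-1383, the other SNORD30 site, FBL knockdown gave 0.927 and 0.929 without re-expression and 0.955 and 0.947 with empty vector. Control knockdown gave 0.994 and 0.997 without re-expression and 0.991 and 0.992 with empty vector. The groups did not overlap. This site has deep flanks, at 504.0 to 4665.3 ends in these 8 libraries, so its counting half-widths in them were 0.00252 to 0.0234. The difference of -0.0539 was small in score C but large against its error (SE 0.00229, 95% interval -0.0592 to -0.0487, limma adjusted p = 5.65e-08).

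At 18S-1391, which SNORD28 guides and which lies 8 nucleotides from the SNORD30 site, score C was 0.862 and 0.845 in FBL knockdown without re-expression and 0.873 and 0.901 in FBL knockdown with empty vector. Control knockdown gave 0.9897 and 0.9858 without re-expression and 0.908 and 0.928 with empty vector. The highest FBL knockdown library and the lowest control library, 0.901 and 0.908, both carried the empty vector. The difference was -0.0828 (SE 0.0140, 95% interval -0.115 to -0.0507, limma adjusted p = 0.000557).

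The other 4 sites stayed above 0.90 in every FBL knockdown and control knockdown library. At 18S-1490 (SNORD25) FBL knockdown gave 0.998 and 0.996 without re-expression and 0.975 and 0.980 with empty vector, and control knockdown gave 0.996 and 0.998 without re-expression and 0.975 and 0.982 with empty vector. Both knockdowns were lower with the vector than without it, and the difference of -0.000544 had a 95% interval of -0.00664 to 0.00555 (limma adjusted p = 0.865). At 28S-4166 (SNORD31) FBL knockdown gave 0.983 and 1 without re-expression and 0.975 and 0.978 with empty vector, against 0.996 and 1 in control knockdown without re-expression and 0.979 and 0.985 in control knockdown with empty vector. The groups overlapped, and the difference was -0.00630 (95% interval -0.0153 to 0.00269, limma adjusted p = 0.176). At 18S-27 (SNORD27) FBL knockdown gave 1 in both libraries without re-expression and 0.989 and 0.975 with empty vector, against 1 and 0.986 in control knockdown without re-expression and 0.972 and 0.956 in control knockdown with empty vector. The difference was 0.0126 (95% interval -0.00817 to 0.0335, limma adjusted p = 0.231). At 28S-4493 (SNORD29) FBL knockdown gave 1 and 0.910 without re-expression and 0.937 and 0.967 with empty vector, against 0.980 and 0.986 in control knockdown without re-expression and 0.981 and 0.981 in control knockdown with empty vector. The difference was -0.0285, with a wider 95% interval of -0.0678 to 0.0108 (limma adjusted p = 0.166). Whether 28S-4493 and 28S-4166 pass depends on the shallow FBL knockdown libraries without re-expression. At 28S-4493 they had 0 and 3 ends at the site, and without the first of them the difference was -0.0509 (limma adjusted p = 0.00125). At 28S-4166 they had 4 and 0 ends, and without the second the difference was -0.0106 (limma adjusted p = 0.0122).

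**Figure D2:**
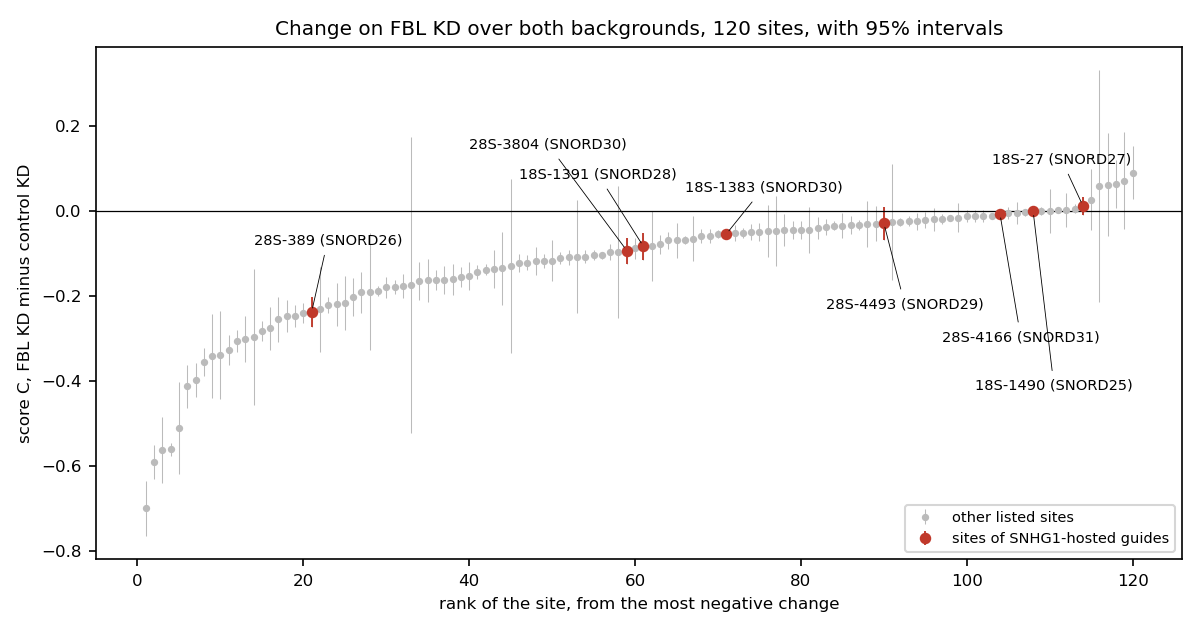
Change of score C (vertical axis, FBL knockdown minus control knockdown, both backgrounds) of all 120 sites, ranked from the most negative on the horizontal axis, with 95% intervals and the 8 SNHG1-guided sites in red. The SNORD26 site 28S-389 is at rank 21 and the remaining 7 sites are at ranks 59 to 114.

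These directions hold for scores as deposited. The median score of a library over all sites differed by -0.118 between FBL knockdown and control knockdown. Making library medians equal shifts all scores of a library by the same amount, and shifted scores can exceed the upper bound of score C. It takes out a change shared by most sites, so a site that fell by less than the medians turns positive. Signs in that setting are relative to the library and do not tell whether a site lost methylation. With library medians made equal, 28S-389 remained lower, at -0.119 (limma adjusted p = 0.000111), whereas 28S-3804, 18S-1391 and 18S-1383 turned to 0.0254, 0.0353 and 0.0642, and the whole table turned from 86 sites lower and 2 higher to 39 lower and 57 higher. Of the 8 SNHG1-guided sites, 28S-389 and 28S-3804 had changes below -0.0853, the median change over all sites.

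Sites guided from other snoRNA host genes were measured in the same fit. The median change was -0.0412 over the 8 SNHG1-guided sites, -0.0707 over the 10 sites guided from GAS5, another multi-snoRNA host gene, and -0.0444 over the 5 sites guided from RPL13A, a ribosomal protein gene with snoRNAs in its introns. All 10 GAS5-guided sites and 4 of the 5 RPL13A-guided sites were lower. By subunit, the median change was -0.0440 over 47 sites of 18S rRNA, of which 26 were lower, and -0.153 over 71 sites of 28S rRNA, of which 59 were lower. No test of one host gene against another was made. Position within SNHG1 did not order the changes: from SNORD25 to SNORD29 they were -0.000544, -0.237, 0.0126, -0.0828 and -0.0285, followed by -0.0539 and -0.0928 for SNORD30 and -0.00630 for SNORD31.

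Another listed site lies within the flanks of 28S-389 and 28S-3804 and so enters their scores. The neighbour of 28S-389 is 28S-391, 2 nucleotides away and guided by SNORD81, a GAS5-hosted snoRNA. It had 0.879 and 0.812 in FBL knockdown without re-expression and 0.784 and 0.793 in FBL knockdown with empty vector, against 0.971 and 0.981 in control knockdown without re-expression and 0.980 and 0.985 in control knockdown with empty vector, a change of -0.162 (limma adjusted p = 7.15e-06). With such neighbours left out of the flanks, 28S-389 changed by -0.220 (SE 0.0150, limma adjusted p = 1.08e-06). The neighbour of 28S-3804 is 28S-3809, 5 nucleotides away and guided by SNORD79, also from GAS5, which changed by -0.0319 (limma adjusted p = 0.000322). Without it in the flanks, 28S-3804 changed by -0.0890 (limma adjusted p = 0.000200). The remaining 6 sites had no listed site within 6 nucleotides.

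The flanks of some sites were uneven. Downstream flanks held 0.126 times the ends of upstream flanks at 18S-1490 in the median library, 0.359 times at 18S-1391, 0.408 times at 28S-4493, 0.467 times at 18S-1383 and 0.528 times at 28S-3804. The ratio was 0.874 at 28S-389, 0.930 at 18S-27 and 2.04 at 28S-4166. Scored against the downstream flank alone, 18S-1490 had a median of 0.915 and a range of 0.765 to 0.993, where the deposited scores were 0.975 to 0.998. The 4 sites that fell were also called lower with the upstream flank alone, at -0.210 to -0.0384, and with the downstream flank alone, at -0.281 to -0.0926.

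**Figure D3:**
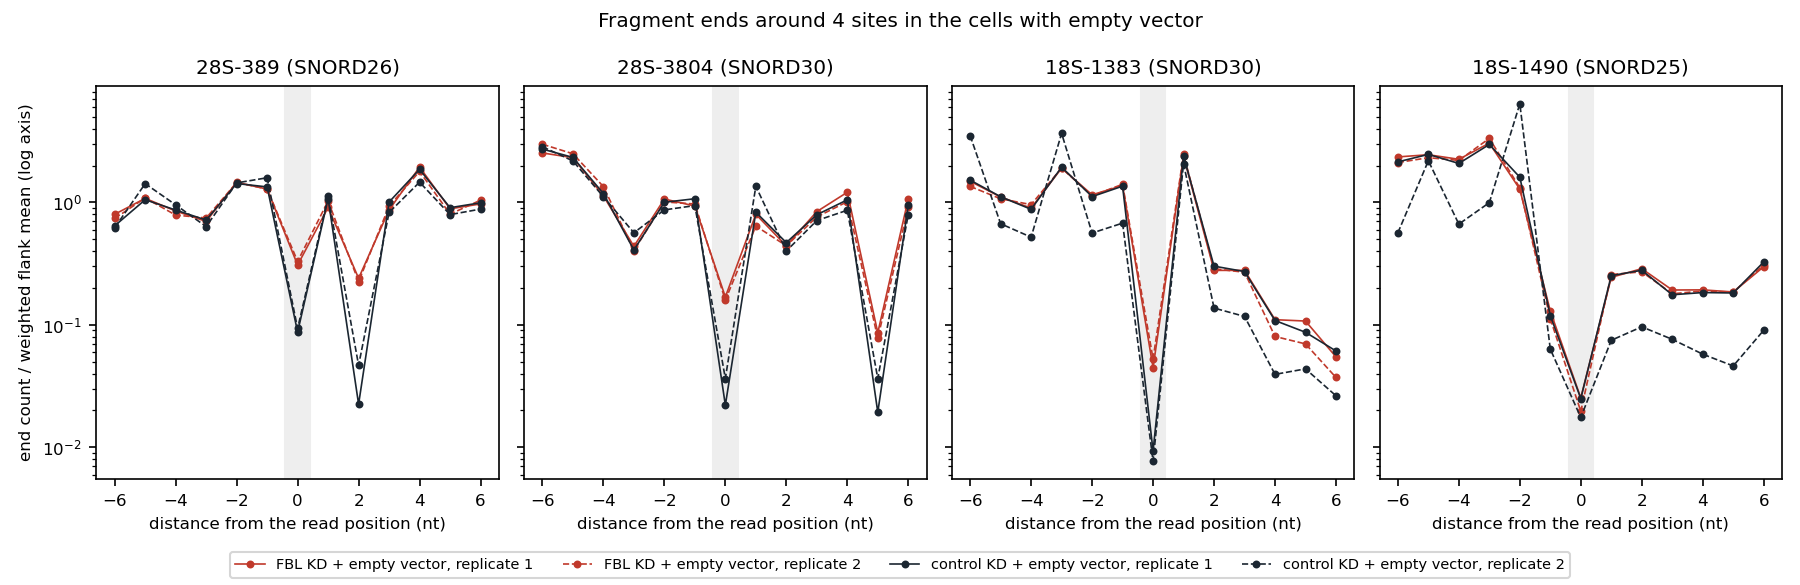
End count relative to the weighted flank mean (vertical axis, log scale) around 28S-389, 28S-3804, 18S-1383 and 18S-1490, from 6 positions before to 6 after the position at which ends are read, which is 1 nucleotide after the site (horizontal axis, nucleotides), in FBL knockdown with empty vector and control knockdown with empty vector. The gap is shallower in FBL knockdown at 28S-389, 28S-3804 and 18S-1383, whereas at 18S-1490 the groups lie together and upstream positions stand above downstream ones.

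The size of the knockdown effect differed between the backgrounds at 3 SNHG1-guided sites. Without re-expression the change was -0.0676 at 18S-1383 (limma adjusted p = 6.96e-07), -0.134 at 18S-1391 (limma adjusted p = 0.000339), -0.0507 at 28S-3804 (limma adjusted p = 0.0446) and -0.246 at 28S-389 (limma adjusted p = 1.15e-05). With empty vector it was -0.0402 at 18S-1383 (limma adjusted p = 4.88e-06), -0.135 at 28S-3804 (limma adjusted p = 0.000199) and -0.229 at 28S-389 (limma adjusted p = 1.31e-05), and 18S-1391 at -0.0314 did not pass (limma adjusted p = 0.191). Of all sites, 59.2% were lower without re-expression and 67.5% with empty vector.

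Tested directly, as the knockdown change with empty vector less that without re-expression, the difference was 0.0274 at 18S-1383 (SE 0.00458, limma adjusted p = 0.00326), 0.103 at 18S-1391 (SE 0.0281, limma adjusted p = 0.0263) and -0.0841 at 28S-3804 (SE 0.0269, limma adjusted p = 0.0449). Of all sites 25% were called lower and 5% higher in this test, or 30 and 6 sites, and the numbers became 12 and 19 once library medians were equal. The other 5 SNHG1-guided sites were not called, among them 28S-389 at 0.0171 with a 95% interval of -0.0518 to 0.0861. Control knockdown itself had a lower mean with the vector at every SNHG1-guided site. The shift was largest at 18S-1391, at 0.908 and 0.928 with empty vector, against 0.9897 and 0.9858 without re-expression. At 28S-389 the control mean was 0.910 with empty vector and 0.954 without re-expression, and at 28S-4493 it was 0.981 and 0.983. The call at 28S-3804 was lost without each of 6 of the 8 libraries in turn and the call at 18S-1391 without each of 5, with limma adjusted p of 0.0772 to 0.123 and 0.0638 to 0.0790. Depth differed too: the libraries without re-expression held at most 9021579 ends and those with empty vector at least 11232162. So did the shape of the flanks, as mean ratios of downstream to upstream ends in FBL knockdown and control knockdown. Without re-expression these were 0.297 and 0.325 at 28S-3804, 0.364 and 0.393 at 18S-1383, and 0.622 and 0.439 at 18S-1391. With empty vector they were 0.523 and 0.555, 0.511 and 0.433, and 0.300 and 0.427. The part of depth or flank shape in the difference was not tested.

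Wild-type FBL put back into FBL knockdown cells raised 3 of the 8 sites above the empty vector, 28S-389, 28S-3804 and 18S-1383, and lowered 18S-27, while 28S-389 alone was still called higher once library medians were equal. Over all sites 57.5% were higher and 0.833% lower. At 28S-389 wild-type FBL gave 0.879 and 0.863, against 0.692 and 0.670 with empty vector, a change of 0.190 (SE 0.0213, 95% interval 0.142 to 0.239, limma adjusted p = 7.13e-05). At 28S-3804 it gave 0.941 and 0.947, against 0.831 and 0.841 with empty vector, a change of 0.108 (SE 0.0190, limma adjusted p = 0.00122). At 18S-1383 it gave 0.986 and 0.988, against 0.955 and 0.947 with empty vector, a change of 0.0358 (SE 0.00324, limma adjusted p = 1.79e-05). None of these groups overlapped. At 18S-1391 wild-type FBL gave 0.921 and 0.923, against 0.873 and 0.901 with empty vector, and the change of 0.0352 did not pass (95% interval -0.0102 to 0.0806, limma adjusted p = 0.168).

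At 18S-27, the SNORD27 site, wild-type FBL gave 0.916 and 0.960, against 0.989 and 0.975 with empty vector. The change was -0.0442 (SE 0.0129, limma adjusted p = 0.0178), and it was the 1 site of all 120 called lower. It rests on few ends, 21 and 12 with wild-type FBL and 3 and 5 with empty vector. The call was lost without the first wild-type FBL library, at -0.0223 (limma adjusted p = 0.0832), and without the first empty vector library, at -0.0375 (limma adjusted p = 0.108). In mean flank count this site was at rank 11 of 120 from the lowest. The whole-table split of 1 lower and 69 higher became 50 lower and 20 higher once library medians were equal, and 18S-1383 turned to -0.0600.

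Set against the size of the fall with empty vector, wild-type FBL regained 83.2% at 28S-389, 79.998% at 28S-3804 and 89.1% at 18S-1383. For the mutants the same share was -28.2% for FBLTri and 0.524% for FBLQua at 28S-389, 14.6% for FBLTri and 15.6% for FBLQua at 28S-3804, and 61.6% for FBLTri and 46.2% for FBLQua at 18S-1383. These shares are descriptions, since both differences use the same libraries of FBL knockdown with empty vector. Compared with control knockdown with empty vector, 0 of the 8 sites passed in limma with wild-type FBL. Of all sites 29.2% were lower and 0.833% higher, or 35 and 1 sites, and 13 and 25 once library medians were equal. At an unadjusted p under 0.05 the numbers were 0 of the 8 sites and 46 of all 120. The difference was -0.0385 at 28S-389 (95% interval -0.0873 to 0.0102), -0.0270 at 28S-3804 (95% interval -0.0704 to 0.0164) and -0.00440 at 18S-1383 (95% interval -0.0118 to 0.00301). At each of these sites both wild-type FBL libraries lay below both libraries of control knockdown with empty vector. Once library medians were equal the differences turned to 0.0032, 0.0148 and 0.0374, the last of which was called higher. For scores as deposited the intervals allow a remaining deficit of up to 0.0873 at the SNORD26 site. Without the second wild-type FBL library, 18S-27 was called lower, at -0.0479 (limma adjusted p = 0.00857).

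**Figure D4:**
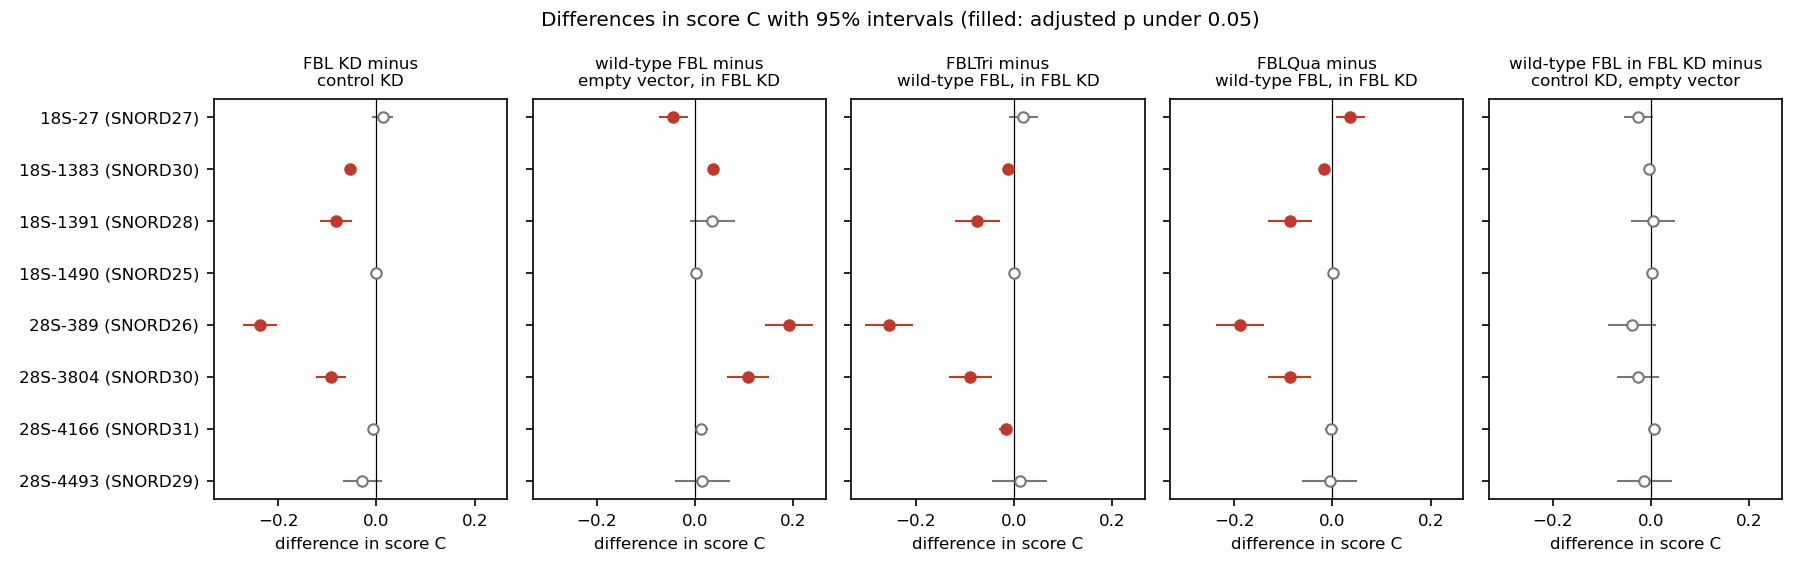
Differences of score C with 95% intervals (horizontal axis) at the 8 SNHG1-guided sites (rows), 1 panel per comparison, with filled points for calls at a limma adjusted p under 0.05. For scores as deposited, wild-type FBL against empty vector is opposite to the knockdown at 28S-389, 28S-3804 and 18S-1383, and the mutants lie below wild-type FBL at 28S-389, with FBLTri at -0.255 and FBLQua at -0.189.

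The FBL mutants left the SNORD26, SNORD28 and SNORD30 sites lower than wild-type FBL did, of which the SNORD26 site alone stayed lower once library medians were equal. At 28S-389 FBLTri gave 0.620 and 0.612 and FBLQua 0.709 and 0.655, against 0.879 and 0.863 with wild-type FBL. The differences were -0.255 for FBLTri (SE 0.0213, limma adjusted p = 1.26e-05) and -0.189 for FBLQua (limma adjusted p = 6.91e-05). At 28S-3804 they were -0.0882 for FBLTri (limma adjusted p = 0.00340) and -0.0868 for FBLQua (limma adjusted p = 0.00399), and both calls were lost on the logit scale, with limma adjusted p of 0.0688 for FBLTri and 0.0722 for FBLQua. At 18S-1391 they were -0.0742 for FBLTri (limma adjusted p = 0.0101) and -0.0865 for FBLQua (limma adjusted p = 0.00505), of which the FBLQua call was lost with only the groups compared in the fit (limma adjusted p = 0.0592). At 18S-1383 the differences were -0.0111 for FBLTri (limma adjusted p = 0.0160) and -0.0173 for FBLQua (limma adjusted p = 0.00153).

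With FBLTri, 28S-4166 was also lower than with wild-type FBL, at 0.977 and 0.968 against 0.986 and 0.992 (change -0.0165, limma adjusted p = 0.0290), which makes 5 of 8 sites lower. The call at 28S-4166 was lost in 5 of 15 alternative runs and turned sign in 1 more. Over all sites 62.5% were lower and 0% higher with FBLTri. With FBLQua 4 of 8 were lower, against 59.2% lower and 0.833% higher over all sites, and 18S-27 was the 1 site of 120 called higher, at 0.0360 (limma adjusted p = 0.0378). With library medians made equal, FBLTri had 24 sites lower and 42 higher in place of 75 and 0, and FBLQua 23 and 43 in place of 71 and 1; only 28S-389 stayed lower among the SNHG1-guided sites in both. Several FBLTri calls depended on 1 library. Without the second FBLTri library, 18S-1391 was at -0.0561 (limma adjusted p = 0.0753), 28S-4166 at -0.0123 (limma adjusted p = 0.164) and 18S-1383 at -0.0116 (limma adjusted p = 0.0551). Without the second wild-type FBL library, 28S-4166 was at -0.0137 (limma adjusted p = 0.138), 18S-1383 at -0.0102 (limma adjusted p = 0.0725) and 18S-27 was called higher, at 0.0412 (limma adjusted p = 0.00759). Without the first FBLTri library, 18S-1383 was at -0.0106 (limma adjusted p = 0.0737). The FBLQua call at 18S-27 was lost without either FBLQua library, at 0.0320 and 0.0399, and without the first wild-type FBL library, at 0.0141, with limma adjusted p of 0.0774 to 0.243.

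Set against the empty vector, both mutants were higher at the SNORD30 site 18S-1383, and neither passed at the SNORD30 site 28S-3804. At 18S-1383 FBLTri gave 0.976 and 0.977 and FBLQua 0.971 and 0.968, against 0.955 and 0.947 with empty vector. Both were higher, by 0.0248 for FBLTri (SE 0.00324, limma adjusted p = 0.000427) and by 0.0186 for FBLQua (limma adjusted p = 0.00365). Once library medians were equal the differences there were 0.0259 for FBLTri (limma adjusted p = 0.0511) and 0.0243 for FBLQua (limma adjusted p = 0.0794), and the calls were lost. At 28S-3804, the other SNORD30 site, FBLTri gave 0.864 and 0.847 and FBLQua 0.860 and 0.854, against 0.831 and 0.841 with empty vector, and neither change passed, at 0.0196 for FBLTri (95% interval -0.0238 to 0.0630) and 0.0210 for FBLQua (limma adjusted p = 0.540). The changes at the SNORD30 sites are of like size, and the difference between the sites was not tested. At 28S-389 FBLTri was lower than the empty vector, at -0.0646 (limma adjusted p = 0.0451), a call lost without either FBLTri or either empty vector library, with changes of -0.0755 to -0.0537. FBLQua differed there by 0.00120 (95% interval -0.0476 to 0.04996). Among the 120 sites FBLTri had 20% lower and 16.7% higher than the empty vector. FBLQua had 11.7% lower and 7.5% higher. With FBLQua 18S-1391 was at -0.0513 (limma adjusted p = 0.101), and without the first FBLQua library at -0.0807 (limma adjusted p = 0.0207).

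Group means put the 7 knockdown groups in a different order at each site. At 28S-389 they were 0.616 ± 0.006 for FBLTri, 0.681 ± 0.015 for FBL knockdown with empty vector, 0.682 ± 0.038 for FBLQua, 0.708 ± 0.034 for FBL knockdown without re-expression, 0.871 ± 0.012 for wild-type FBL, 0.910 ± 0.004 for control knockdown with empty vector and 0.954 ± 0.011 for control knockdown without re-expression (SD, n = 2 each). The ranges of FBL knockdown with empty vector, FBLQua and FBL knockdown without re-expression overlapped, and those of the other neighbours did not. At 18S-1383 the order was FBL knockdown without re-expression, FBL knockdown with empty vector, FBLQua, FBLTri, wild-type FBL, control knockdown with empty vector and control knockdown without re-expression, at 0.928, 0.951, 0.970, 0.976, 0.987, 0.991 and 0.995, and no neighbours overlapped. At 28S-3804 the means were 0.836 for FBL knockdown with empty vector, 0.856 for FBLTri, 0.857 for FBLQua, 0.944 for wild-type FBL, 0.945 for FBL knockdown without re-expression, 0.971 for control knockdown with empty vector and 0.996 for control knockdown without re-expression. The libraries of FBL knockdown without re-expression reached from below wild-type FBL to above control knockdown with empty vector there. At 18S-1391 the means were 0.836 for FBLQua, 0.848 for FBLTri, 0.853 for FBL knockdown without re-expression, 0.887 for FBL knockdown with empty vector, 0.918 for control knockdown with empty vector, 0.922 for wild-type FBL and 0.988 for control knockdown without re-expression. The 3 lowest groups overlapped there, as did wild-type FBL and control knockdown with empty vector. The mutants thus stood between empty vector and wild-type FBL at 18S-1383 and level with or below the empty vector at 28S-389.

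Since one guide serves both SNORD30 sites, their scores were compared within each library. The score at 18S-1383 minus that at 28S-3804 was 0.0170 and -0.0523 in FBL knockdown without re-expression and 0.124 and 0.106 in FBL knockdown with empty vector, against 0.00171 and -0.00311 in control knockdown without re-expression and 0.0128 and 0.0288 in control knockdown with empty vector. It averaged 0.0489 ± 0.0821 over the 4 FBL knockdown libraries and 0.01003 ± 0.0141 over the 4 control libraries (SD, n = 4 each). The difference of 0.0388 did not pass a two-sided exact permutation test (p = 0.343, 70 arrangements). The arrangements ignored the background, and much of the spread among FBL knockdown libraries lay between the backgrounds. The test therefore cannot show that the SNORD30 sites respond alike. Of these 8 libraries, both of FBL knockdown with empty vector had a gap above the highest control value, and the second library without re-expression had a gap of the opposite sign, with 1 end at the 28S site. Outside this test, gaps above the highest control value were also seen with FBLTri (0.111 and 0.130), FBLQua (0.112 and 0.114) and wild-type FBL (0.0453 and 0.0413), and in SNORD127 knockout clone C1 with empty vector (0.0564).

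**Figure D5:**
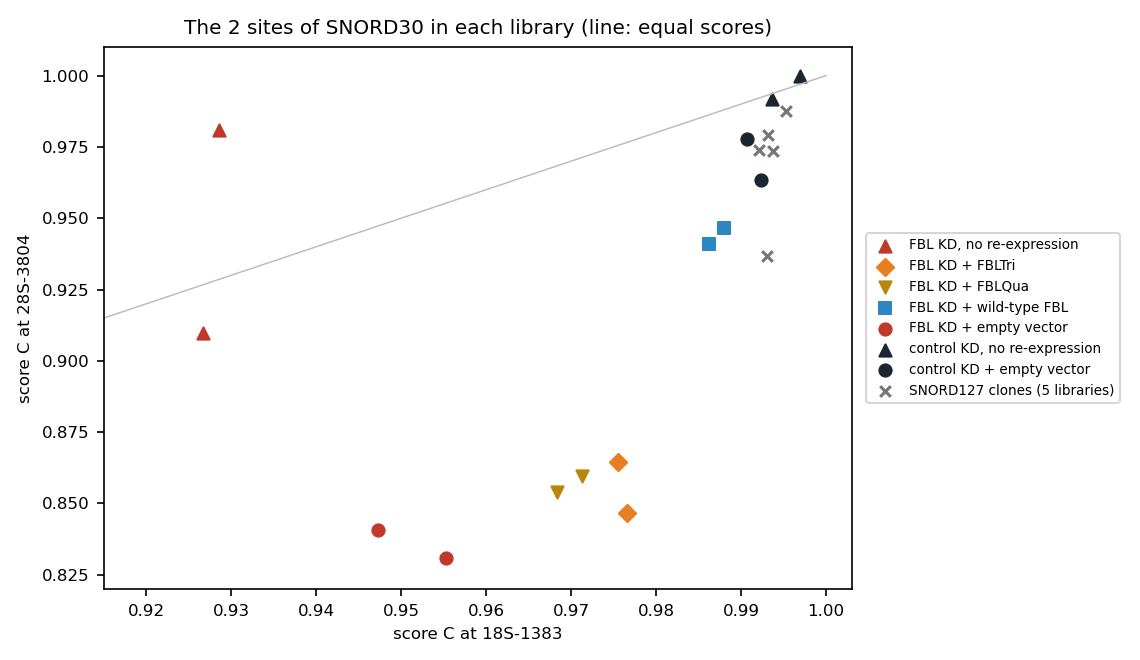
Score C at 28S-3804 (vertical axis) against 18S-1383 (horizontal axis), both guided by SNORD30, for each of the 19 libraries, coloured by group, with a line where the scores are equal. Libraries of FBL knockdown with empty vector or a mutant have a 28S score of 0.831 to 0.864 and an 18S score of 0.947 to 0.977.

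SNORD127, which guides 18S-1447, is not hosted by SNHG1, and its absence gave no call at the SNHG1-guided sites. The 3 libraries without SNORD127 (clones C1 and C34 and clone C1 with empty vector) were compared with the 2 libraries with it (clone C1 with SNORD127 and the control clone). Of the 8 sites 0 passed in limma, against 0.833% lower and 0% higher over all sites. At an unadjusted p under 0.05 the numbers were 0 of the 8 sites and 2 of all 120. The largest difference of the 8 was at 28S-389, at 0.950, 0.983 and 0.971 without SNORD127 and 0.928 and 0.945 with it. The groups did not overlap there, but the change of 0.0314 had a 95% interval of -0.00728 to 0.0702. The interval takes the libraries of each side as replicates and shares its estimate of spread with the knockdown libraries, although clone C1 gave libraries to both sides. At 18S-1490, whose nearest listed site is 18S-1447 at 43 nucleotides, the 5 libraries ranged from 0.978 to 0.988. Across them 18S-1383 ranged from 0.992 to 0.995, 18S-1391 from 0.914 to 0.955, 28S-3804 from 0.937 to 0.988, 18S-27 from 0.948 to 0.980, 28S-4166 from 0.977 to 0.994 and 28S-4493 from 0.972 to 0.985.

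Over the means of the 12 groups the span of score C was 0.366 at 28S-389, 0.160 at 28S-3804, 0.152 at 18S-1391, 0.0677 at 18S-1383 and 0.0620 at 18S-27, and under 0.05 at 18S-1490, 28S-4166 and 28S-4493. Sites with the most similar pattern were sought for the first 5 by Pearson correlation of group means, given as a description, since all sites share the libraries. Sites of SNHG1-hosted guides and listed sites within 6 nucleotides were left out of the search. For 28S-389 these were 28S-4276 (SNORD41, r = 0.986) and the site of SNORD96A and SNORD96B (r = 0.984). For 28S-3804 they were 28S-1858 (SNORD38B and SNORD38A, r = 0.974) and 18S-1678 (SNORD82, r = 0.971), and for 18S-1383 they were 28S-3904 (SNORD52, r = 0.983) and 28S-1521 (SNORD77 and SNORD80, r = 0.974). For 18S-1391 the highest were 28S-4276 (r = 0.914) and 18S-683 (SNORD19 and SNORD19B, r = 0.910). The closest to 18S-27 reached 0.721 and 0.644, at 28S-2739, which has no known guide in the table, and 28S-4362 (SNORD1A, SNORD1B and SNORD1C).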

How the data were processed

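Per the labels' protocols, total RNA was fragmented with alkali and made into small RNA libraries; per the submitters' processing notes, the tools include cutadapt and Bowtie2, but their versions, their settings and the rRNA reference are not given in sources used here. The authors deposited raw end counts for 7000 rRNA positions and score C, a fraction, for 120 sites with guide names. Score C is 1 minus the end count 1 position after the site over the average of its 2 flank means (6 positions each, weights 1 to 0.5), set to 0 where negative; this returned 2280 of 2280 deposited scores within 1e-09.

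Deposited scores were tested with limma 3.58.1 (R 4.3.3), 1 coefficient per knockdown group and 1 each for libraries without and with SNORD127, with a variance trend. Knockdown comparisons used the 14 knockdown libraries and the SNORD127 comparison all 19. Each fit takes 1 spread per site, whatever the depth of a library, so SEs can be too small where shallow libraries are compared. Intervals from counting are 95% and come from Poisson error propagation on the counts. The fit was tested on simulated data. Alternatives were the logit scale, other flanks, negative scores kept, equal library medians, a filter on low counts, a replicate block, other sets of libraries and leaving out each library.

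All 8 sites were named, with listed sites within 6 nucleotides. Where group means spanned 0.05, the 2 sites most alike over the 12 groups were also named. These were sought among sites of other guides and not within 6 nucleotides. The sites and the lists of guides by host gene were chosen with earlier results of these data known. The files name no genome build, so no genome coordinates are given.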

Additional observations from a re-analysis of the deposited data

Results flagged for a closer look

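The knockdown effect with empty vector minus that without re-expression was tested directly, and 3 sites of SNHG1-hosted guides differed between these backgrounds. The difference was 0.0274 at 18S-1383 and -0.0841 at 28S-3804, both guided by SNORD30, and 0.103 at 18S-1391, guided by SNORD28. Of all sites, 25% were called lower and 5% higher in this test. The call at 28S-3804 was lost in 10 of 18 alternative runs and that at 18S-1391 in 7 of 18, while that at 18S-1383 held. None of these runs let the spread vary with the depth of a library. For scores as deposited, the signs at the SNORD30 sites are opposite: the fall was smaller with empty vector at 18S-1383 and larger at 28S-3804. The neighbour within the flanks of 28S-3804, 28S-3809 (SNORD79), differed in the same direction as 28S-3804, at -0.0633 (limma adjusted p = 0.00264).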

How the results depend on the processing

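The 28S-389 (SNORD26) calls for knockdown, for wild-type FBL against empty vector and for both mutants against wild-type FBL held in every alternative run. Other results moved as follows, with counts out of 8 sites. Signs and calls with library medians made equal are relative to the library and do not tell a gain or loss of methylation. With library medians made equal, knockdown gave 1 lower and 5 higher in place of 4 and 0, the background difference 0 lower and 4 higher in place of 1 and 2, wild-type FBL against empty vector 6 lower and 1 higher in place of 1 and 3, wild-type FBL against control 3 higher in place of 0, FBLTri against wild-type FBL 1 lower and 5 higher in place of 5 and 0, FBLQua against wild-type FBL 1 lower and 5 higher in place of 4 and 1, FBLTri against empty vector 0 lower and 0 higher in place of 1 and 1, and FBLQua against empty vector 0 higher in place of 1. Among values called in at least 1 of these settings, signs turned there for knockdown at 18S-1383 (0.0642), 18S-1391 (0.0353), 18S-1490 (0.118), 28S-3804 (0.0254), 28S-4166 (0.112) and 28S-4493 (0.0896); for the background difference at 18S-1490 (0.0375); for wild-type FBL against empty vector at 18S-1383 (-0.0600), 18S-1391 (-0.0606), 18S-1490 (-0.0938), 28S-4166 (-0.0832) and 28S-4493 (-0.0809); for wild-type FBL against control at 18S-1383 (0.0374); for FBLTri against wild-type FBL at 18S-1383 (0.0859), 18S-1391 (0.0227), 28S-3804 (0.0087) and 28S-4166 (0.0804); and for FBLQua against wild-type FBL at 18S-1383 (0.0842), 18S-1391 (0.0150), 28S-3804 (0.0147), 28S-4166 (0.0991) and 28S-4493 (0.0957). Among values called in neither, they turned for wild-type FBL against control at 18S-27 (0.0157), 28S-389 (0.0032), 28S-3804 (0.0148) and 28S-4493 (0.0276). Other uncalled values near 0 also turned sign under some settings.

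The background difference lost its 1 lower site (0 left) on the logit scale, with the replicate block (28S-3804, limma adjusted p = 0.0564) and with the downstream flank alone, and had 1 higher site in place of 2 with flanks of 2 positions or the downstream flank alone. Wild-type FBL against empty vector had 0 lower sites with the low-count filter, which removes 18S-27, and with only the groups compared. Wild-type FBL against control had 1 lower site with flanks of 2 positions (28S-389, -0.0463) and 1 on the logit scale (18S-1383). FBLTri against wild-type FBL had 3 lower sites with no variance trend. FBLQua against wild-type FBL had 0 higher sites on the logit scale, with the low-count filter, with only the groups compared, with the replicate block and with the downstream flank alone. FBLTri against empty vector had 0 lower sites with neighbours left out of the flanks, on the logit scale, with the downstream flank alone, with only the groups compared and with the replicate block, and FBLQua against empty vector 0 higher with only the groups compared. With the block, the 18S-27 call for FBLQua against wild-type FBL had limma adjusted p = 0.0506 and the 28S-389 call for FBLTri against empty vector 0.0559, and apart from these and 28S-3804 above the block changed no call at the 8 sites. Leaving out each library gave 4 to 5 lower sites for knockdown, 0 to 1 lower and 1 to 2 higher for the background difference, 0 to 1 lower for wild-type FBL against empty vector and against control, 2 to 5 lower and 0 to 1 higher for FBLTri against wild-type FBL, 0 to 1 higher for FBLQua against wild-type FBL, 0 lower for FBLTri and 0 to 1 lower for FBLQua against empty vector, and 0.0137 to 0.0725 for the SNORD30 pair. Deviations of same-numbered replicates had correlations of -0.226 to 0.694 over 21 pairs of groups, 12 of them over 0.1. The highest was between FBLQua and wild-type FBL. The main fits left out the replicate number, which only the replicate block took in. The single-side flanks and the single backgrounds were added after seeing the data. The cause of these moves was not tested beyond the filter's removal of 18S-27. Depth limits 18S-27, 28S-4493, 28S-3804 and 28S-4166, where several libraries had 0 to 5 ends at the site. The widest counting half-width was 0.142, at 28S-389, and it reached 0.125 at 18S-1391.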
